A study of Mus musculus with 8 samples.

Results

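The genes described here carry signals for blood vessel growth and for the response to low oxygen. They are 3 secreted ligands (*Vegfa*, *Angpt1* and *Angpt2*), 3 receptors of endothelial cells (*Kdr*, *Flt1* and *Tek*), 2 coreceptors (*Nrp1* and *Nrp2*) and 2 hypoxia-inducible transcription factors (*Hif1a* and *Epas1*). The genes were chosen by name, and all 10 were found among the 21938 protein-coding genes of the GENCODE annotation of mm10. PBRM1 (BAF180), which belongs to the PBAF form of the SWI/SNF chromatin remodelers, and BRG1, the subunit that hydrolyzes ATP, were mapped by chromatin immunocleavage sequencing (ChIC-Seq), in which an antibody brings a micrococcal nuclease to the chromatin its antigen occupies. The cells were a primary culture of stromal cells of the uterus, taken from WT animals at D4 and assayed hours after plating, with 3 replicates for each antibody. All libraries share this genotype and day, and no mutant or second time point was compared. The labels give mice of 8 to 12 weeks, 50000 cells and a fixation of 5 minutes for each library. The time is labeled as day 4 of pregnancy, whereas the extraction text speaks of pseudopregnant mice, and cells of 5 to 10 uterine horns were combined, so that a replicate is a pool and not 1 animal. The 2 IgG libraries were not analysed here.

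VEGFA is the main growth signal of endothelial cells and acts through the receptor tyrosine kinases KDR (VEGFR2) and FLT1 (VEGFR1), the latter also serving as a decoy for the ligand. ANGPT1 activates and ANGPT2 mostly antagonizes TEK (TIE2), the receptor that keeps vessels quiescent, and neuropilins bind VEGF and semaphorins beside the signaling receptors. HIF1A and EPAS1 (HIF2A) are stable at low oxygen and raise the transcription of *Vegfa*, among other genes. In early pregnancy, stromal cells of the uterus secrete VEGF and angiopoietins, while KDR, FLT1 and TEK act in the endothelial cells next to them.

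A peak was counted at a promoter when any of its bases lay within 2000 bp of an annotated transcription start site (TSS) of the gene. The fold enrichment is the value of the authors' peak caller for fragments at the summit over the local background of the same library. Fold enrichments are therefore relative to each library and each surrounding, and a list holds no value where no peak was called. The peaks rested on 8868777 to 16505239 fragments per PBRM1 replicate and 11506964 to 14595089 per BRG1 replicate. PBRM1 replicate 3 stood apart, since it had the most fragments but the fewest peaks, 21912, and the lowest median fold enrichment, 4.75.

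The promoter sequence of RefSeq (GRCm38.p6, which shares its coordinates with mm10) was held for 7 of the 10 genes. The bases upstream of the RefSeq start are shown for 6 of them, because their promoter peaks are described below, in the direction of transcription and without UTR bases. The RefSeq stretch of *Nrp1* and that of a second start of *Vegfa* were searched as well and are not shown. Capitals mark exact matches, on either strand, to the core of the hypoxia response element (ACGTG or GCGTG) and to the ETS string CCGGAA. The AP-1 string TGANTCA was searched as well.
Vegfa, chr17:46032378-46032627, minus strand: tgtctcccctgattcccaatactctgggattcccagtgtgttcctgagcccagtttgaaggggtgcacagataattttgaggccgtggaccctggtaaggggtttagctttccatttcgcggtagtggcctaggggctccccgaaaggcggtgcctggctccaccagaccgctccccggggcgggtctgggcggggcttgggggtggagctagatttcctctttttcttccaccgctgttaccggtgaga
Kdr, chr5:75978459-75978705, minus strand: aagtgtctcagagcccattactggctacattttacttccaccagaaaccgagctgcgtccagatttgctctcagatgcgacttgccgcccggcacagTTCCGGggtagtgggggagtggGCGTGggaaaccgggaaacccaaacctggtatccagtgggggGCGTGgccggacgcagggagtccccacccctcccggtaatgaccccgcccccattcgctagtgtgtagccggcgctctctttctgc
Flt1, chr5:147726012-147726261, minus strand: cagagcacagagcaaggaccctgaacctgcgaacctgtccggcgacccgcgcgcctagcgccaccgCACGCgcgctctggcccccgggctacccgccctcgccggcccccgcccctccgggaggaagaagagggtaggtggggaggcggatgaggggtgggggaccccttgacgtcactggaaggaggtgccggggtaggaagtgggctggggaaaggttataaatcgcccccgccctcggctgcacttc
Tek, chr4:94739039-94739288, plus strand: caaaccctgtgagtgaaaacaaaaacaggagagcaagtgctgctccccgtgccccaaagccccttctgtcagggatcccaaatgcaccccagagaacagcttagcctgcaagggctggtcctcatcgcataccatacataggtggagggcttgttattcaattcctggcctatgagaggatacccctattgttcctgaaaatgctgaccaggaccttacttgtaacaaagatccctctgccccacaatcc
Nrp2, chr1:62703067-62703284, plus strand: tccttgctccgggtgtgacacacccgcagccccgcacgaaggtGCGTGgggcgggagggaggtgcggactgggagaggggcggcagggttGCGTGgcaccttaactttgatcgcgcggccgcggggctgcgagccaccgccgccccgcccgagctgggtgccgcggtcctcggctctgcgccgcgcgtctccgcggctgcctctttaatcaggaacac
Hif1a, chr12:73907617-73907866, plus strand: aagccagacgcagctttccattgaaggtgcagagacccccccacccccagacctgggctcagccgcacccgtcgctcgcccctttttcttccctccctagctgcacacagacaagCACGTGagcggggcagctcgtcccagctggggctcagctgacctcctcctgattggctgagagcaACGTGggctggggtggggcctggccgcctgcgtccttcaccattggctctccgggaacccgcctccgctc
The *Hif1a* promoter held the palindrome CACGTG, in which the first core is read on both strands, and 1 further copy of that core. The other hypoxia core was present at *Kdr*, *Flt1* and *Nrp2*, and also in the *Nrp1* stretch. At *Vegfa*, the stretch shown held none of the 4 strings, whereas that of the second start (46025164 to 46025413), inside the gene, held both hypoxia cores. Coding bases were not left out, and the bases around both of these cores read as codons of VEGFA. The stretch of *Tek* held none of the strings. Of the 8 RefSeq windows of 300 bp that belong to the 7 genes, 6 held either hypoxia core, as did 43.8% of all 32851 windows of the table. AP-1 was found in 0 of the 8 and in 7.81% of all windows, and the ETS string in 1 of the 8, that of *Kdr*, and in 14.9% of all.

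At the promoters, every one of the 10 genes had a peak in both pooled lists. The background was high, since 68.6% of all protein-coding genes had a promoter peak in the pooled PBRM1 list and 72.1% in the pooled BRG1 list. In the single replicates, a BRG1 promoter peak was found in all 3 replicates of all 10 genes, against 61.4% of protein-coding genes. A PBRM1 promoter peak was found in all 3 replicates of 6 genes, *Vegfa*, *Kdr*, *Nrp1*, *Nrp2*, *Hif1a* and *Epas1*, against 52.2% of protein-coding genes. *Flt1* and *Angpt2* had one in 2 of 3 PBRM1 replicates, *Angpt1* in 1 and *Tek* in 0. The missing peaks of *Flt1* and *Angpt2* were those of PBRM1 replicate 3. Without this replicate, 8 of the 10 genes had a PBRM1 peak in both remaining replicates, as did 56.9% of protein-coding genes. The median pooled fold enrichment of the strongest promoter peak was 4.80 for PBRM1 and 6.60 for BRG1 over the 10 genes, below the medians of 6.90 and 8.74 over all protein-coding genes with such a peak. The plot of promoter fold enrichment by replicate shows the spread within and between the genes.

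**Figure D1:**
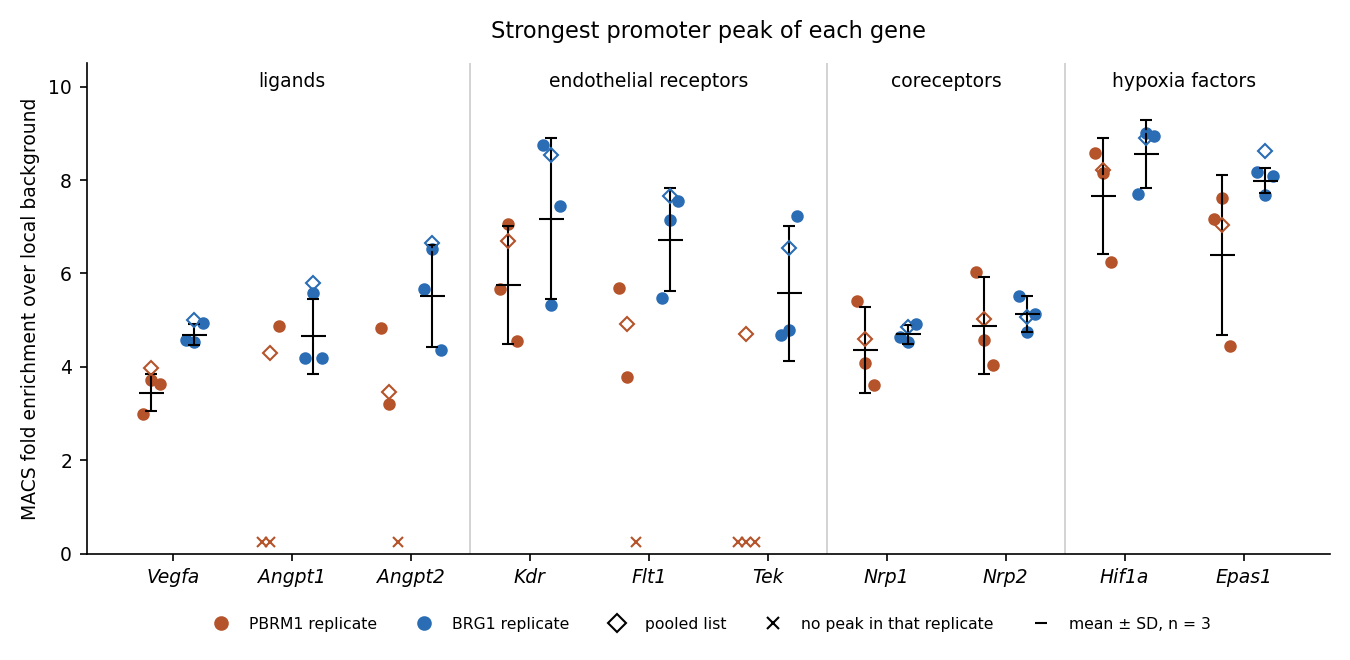
MACS fold enrichment (y axis) at the strongest promoter peak of each of the 10 genes (x axis), with filled points for replicates, open diamonds for pooled lists, crosses near 0 for replicates without a peak, and bars for mean ± SD where all 3 replicates had one. *Hif1a* and *Epas1* had the highest means of both antibodies, and the crosses lie at *Angpt1*, *Angpt2*, *Flt1* and *Tek* for PBRM1 only.

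*Vegfa* (chromosome 17, 46016993 to 46032369, minus strand) had promoter peaks in all 6 replicates, but PBRM1 was not at the same place in each. PBRM1 had a fold enrichment of 3.00, 3.72 and 3.64 in replicates 1, 2 and 3, a mean of 3.45 ± 0.396 (SD, n = 3). BRG1 had 4.58, 4.54 and 4.95, a mean of 4.69 ± 0.227 (SD, n = 3). The strongest peak of PBRM1 replicates 2 and 3 and of all BRG1 replicates lay at the upstream TSS, at 46032218 to 46032903. In PBRM1 replicate 1 the only promoter peak lay at the principal TSS about 1 kb further into the gene, at 46030996 to 46031512, where BRG1 also had a peak in all 3 replicates. When 1 site had to carry the peak in all 3 replicates, *Vegfa* was no longer among the PBRM1 genes and 5 of 10 genes were left. No share of all protein-coding genes was set beside that rule. An intronic site 3.56 kb inside the gene (46027379 to 46028015) had peaks in 2 of 3 replicates of each antibody.

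*Angpt1* (chromosome 15, 42424723 to 42676977, minus strand), which encodes the agonist of TEK, had weak and scattered promoter peaks. BRG1 had fold enrichments of 4.19, 5.58 and 4.19 in its replicates, and the summits lay between 27 and 706 bp inside the gene. PBRM1 had promoter peaks in replicate 3 only, the stronger with 4.86 and a summit 1841 bp inside the gene. No *Angpt1* site carried a peak in all 3 replicates of either antibody. A start site of the noncoding gene Gm17473 lies within 2 kb of the 3 promoter sites, so that these peaks cannot be given to *Angpt1* alone.

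*Angpt2* (chromosome 8, 18690263 to 18741562, minus strand), the context-dependent antagonist, had BRG1 fold enrichments of 5.66, 6.53 and 4.37. All lay within the pooled BRG1 peak at its TSS (18740976 to 18741785). The peaks of replicates 1 and 2 overlapped (18741590 to 18741768 and 18741442 to 18741740). That of replicate 3 (18741183 to 18741432) overlapped neither and was joined to them only by the pooled peak. PBRM1 had 4.84 within the same pooled BRG1 peak in replicate 1 and 3.20 at an intronic site in replicate 2, 1060 bp inside the gene. The pooled summits of the antibodies were 553 bp apart at the TSS site. At *Angpt2*, BRG1 replicates 1 and 2 thus shared a place near the TSS, whereas the PBRM1 replicates shared none.

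The receptor genes all had BRG1 promoter peaks in every replicate, whereas PBRM1 was called in 3 replicates at *Kdr*, 2 at *Flt1* and 0 at *Tek*. *Kdr* (chromosome 5, 75932827 to 75978458, minus strand), which encodes the main signaling receptor of VEGFA, had PBRM1 fold enrichments of 5.66, 7.06 and 4.55 (mean 5.76 ± 1.26, SD, n = 3) and BRG1 fold enrichments of 8.74, 5.33 and 7.44 (mean 7.17 ± 1.72, SD, n = 3). All 6 peaks formed 1 site of 1306 bp over the only annotated TSS, and the pooled summits were 6 bp apart. The ranges of the antibodies overlapped. A further *Kdr* site lay at the other end of the gene, 44.6 kb from the TSS in UTR sequence (75933456 to 75934143). It had fold enrichments of 5.59 and 6.24 in PBRM1 replicates 1 and 3 and of 6.97, 8.32 and 5.32 in BRG1, so that only PBRM1 replicate 2 lacked it.

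*Flt1* (chromosome 5, 147561604 to 147726011, minus strand) had PBRM1 fold enrichments of 5.70 and 3.78 in replicates 1 and 2 and BRG1 fold enrichments of 5.47, 7.15 and 7.55 (mean 6.72 ± 1.11, SD, n = 3), all at the promoter of its principal TSS. Of 12 sites inside *Flt1* and away from its promoters, none had a peak in all 3 replicates of an antibody. *Tek* (chromosome 4, 94739289 to 94874976, plus strand) had BRG1 fold enrichments of 4.69, 4.79 and 7.24 at its promoter (mean 5.57 ± 1.44, SD, n = 3). A PBRM1 peak was called there in the pooled list, with 4.70, but in no replicate. Inside *Tek*, however, both antibodies had a peak in every replicate. This intronic site, 13.2 kb from the principal TSS (94752318 to 94752874), had PBRM1 fold enrichments of 3.56, 6.37 and 6.37 and BRG1 fold enrichments of 3.78, 6.19 and 6.66. The values of the antibodies lay over the same range, and replicate 1 of each was the lowest.

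Both neuropilin genes had PBRM1 and BRG1 promoter peaks in every replicate. *Nrp1* (chromosome 8, 128358604 to 128503363, plus strand) had 5.40, 4.07 and 3.61 for PBRM1 (mean 4.36 ± 0.928, SD, n = 3) and 4.63, 4.53 and 4.93 for BRG1 (mean 4.70 ± 0.207, SD, n = 3). Its promoter peaks were split over neighboring sites. The site present in all 6 replicates had its summit 1.99 kb before the principal TSS (128357233 to 128357609), and it also lies within 2 kb of the start of Mir1903. *Nrp2* (chromosome 1, 62703285 to 62818695, plus strand) had 6.04, 4.58 and 4.03 for PBRM1 (mean 4.88 ± 1.04, SD, n = 3) and 5.51, 4.75 and 5.13 for BRG1 (mean 5.13 ± 0.379, SD, n = 3). These peaks shared 1 promoter site, with pooled summits 6 bp apart. For both genes PBRM1 replicate 3 was the lowest of its group.

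*Hif1a* (chromosome 12, 73901375 to 73947530, plus strand) had the highest mean of the 10 genes for both antibodies. PBRM1 had 8.57, 8.16 and 6.25 (mean 7.66 ± 1.24, SD, n = 3), and BRG1 had 7.71, 9.01 and 8.94 (mean 8.55 ± 0.731, SD, n = 3). Ranked by q-value within their lists, the PBRM1 peaks lay between percentile 93.5 and 95.8, and those of BRG1 between 93.6 and 95.9. *Epas1* (chromosome 17, 86753700 to 86833410, plus strand) followed, with 7.16, 7.61 and 4.44 for PBRM1 (mean 6.40 ± 1.71, SD, n = 3) and 8.17, 7.68 and 8.10 for BRG1 (mean 7.98 ± 0.264, SD, n = 3). PBRM1 replicate 3 was again the lowest at both genes. Ordered by mean fold enrichment over the replicates, PBRM1 ran from *Hif1a* over *Epas1*, *Kdr*, *Nrp2* and *Nrp1* to *Vegfa*. BRG1 ran from *Hif1a* over *Epas1*, *Kdr*, *Flt1*, *Tek*, *Angpt2*, *Nrp2*, *Nrp1* and *Vegfa* to *Angpt1*. In both orders the replicate ranges of every pair of neighbors overlapped.

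Fold enrichment and the amount of signal gave different orders. Coverage at the summit and the local background behind it were each divided by the mean coverage of the library. At *Vegfa*, the summit stood at 22.2 ± 3.60 times the library mean in PBRM1 and at 46.9 ± 6.26 times in BRG1 (SD, n = 3 each), while the local background was itself 5.73 ± 1.01 and 9.01 ± 0.755 times the mean. *Kdr*, with a higher fold enrichment, had 17.0 ± 5.39 and 28.3 ± 6.57 at the summit over a local background of 2.04 ± 0.214 and 2.92 ± 0.0375 (SD, n = 3 each). In BRG1, every *Vegfa* replicate had a higher summit than every *Kdr* replicate, and every one had a lower fold enrichment. By BRG1 summit coverage, *Vegfa* came next after *Hif1a* with 89.7 ± 8.58 and *Epas1* with 62.0 ± 6.69 (SD, n = 3 each), whereas by fold enrichment only *Angpt1* was lower. Among the strongest promoter peaks of all genes, the local background at *Vegfa* ranked between percentile 93.9 and 97.3 in the 6 replicates, that at *Nrp2* between 90.1 and 96.8 and that at *Hif1a* between 95.2 and 98.3, so that a high background was found at genes of low and of high fold enrichment. *Tek* and *Angpt1* were at the other end, with BRG1 summits of 13.1 ± 4.64 and 12.5 ± 2.85 over a background of 1.31 ± 0.139 and 1.72 ± 0.202 (SD, n = 3 each). Whether open chromatin, nearby peaks or the nuclease raised the background at *Vegfa* was not tested.

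**Figure D2:**
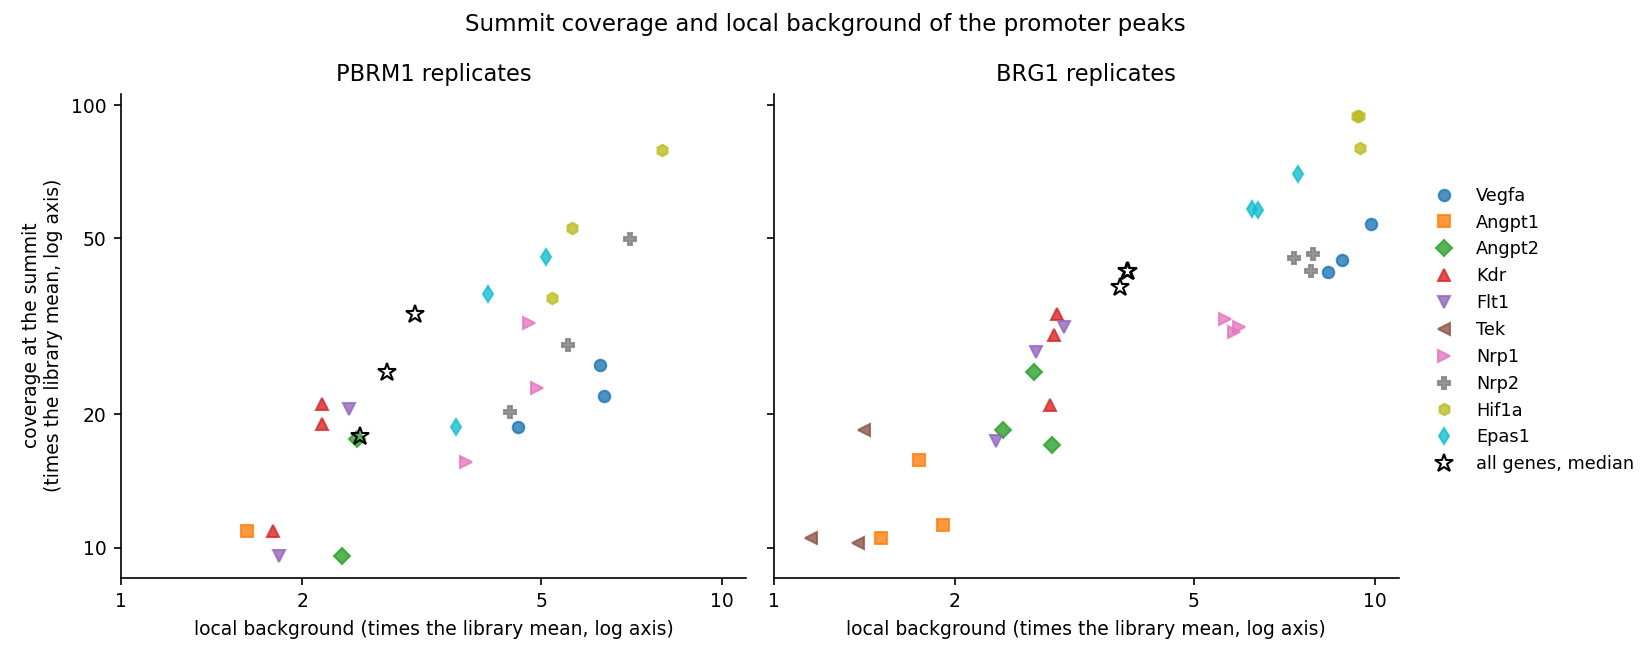
Coverage at the summit of the strongest promoter peak (y axis) against the local background (x axis), both as multiples of the mean coverage of the library on log axes, with 1 symbol per replicate and gene and stars for the median over all genes in each replicate. In BRG1, *Vegfa*, *Nrp1*, *Nrp2*, *Hif1a* and *Epas1* lie to the right of the stars at high background, and *Tek*, *Angpt1*, *Angpt2*, *Kdr* and *Flt1* lie to the left.

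The antibodies were compared by the percentile of the promoter peak within its own list, ranked by q-value, since the lists do not share a scale. A percentile still depends on the length of the list, and the BRG1 lists held 36656 to 40610 peaks against 21912 to 26363 for PBRM1. Only the 6 genes with a peak in all 6 replicates could enter. At *Vegfa*, the PBRM1 peaks stood at percentiles 6.36, 48.2 and 46.1 and the BRG1 peaks at 70.6, 66.9 and 74.0, a difference in means of 36.9. The exact permutation test, two-sided, gave p = 0.1, below which a design of 3 against 3 cannot go. *Nrp1* stood at 56.7, 49.1 and 36.3 for PBRM1 and at 63.1, 56.9 and 61.5 for BRG1, a difference of 13.1 (exact permutation test, p = 0.1). These were the 2 genes whose replicates did not overlap between the antibodies. The differences were 17.3 at *Kdr* (exact permutation test, p = 0.2), 12.6 at *Epas1* (p = 0.2), 6.45 at *Nrp2* (p = 0.4) and 0.111 at *Hif1a* (p = 0.7). All 6 differences were toward BRG1, as was the median difference of 8.79 over the 11376 genes with a peak in all 6 replicates. Among those genes, the replicates were separated with BRG1 higher in 40.1% and with PBRM1 higher in 2.71%, so that 2 of 6 is near the background. At *Vegfa*, the distance rested in part on PBRM1 replicate 1, whose peak lay at the other TSS. Without it the difference was 23.3, and the replicates still did not overlap. Without PBRM1 replicate 3, which stood apart, the differences were 43.2 at *Vegfa*, 7.56 at *Nrp1*, 11.2 at *Kdr*, 4.86 at *Epas1*, 2.46 at *Nrp2* and −0.605 at *Hif1a*. At *Nrp1*, the strongest peaks of PBRM1 replicates 2 and 3 lay at a neighboring promoter site, away from those of PBRM1 replicate 1 and BRG1. Ranked by fold enrichment, the *Nrp1* difference was 10.8 (exact permutation test, p = 0.4), and among promoter peaks it was 5.19 (p = 0.6). *Vegfa* kept p = 0.1 in both of these permutation tests.

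Inside the genes, away from the promoter windows of the same gene, 8 of the 10 genes had a pooled PBRM1 peak and 9 a pooled BRG1 peak. Of the 14164 protein-coding genes of at least 10 kb, 42.4% and 52.7% had one, without matching for gene length. *Hif1a* had no such peak of either antibody, and *Angpt1*, the longest of the genes with 252 kb, had 1 BRG1 peak and no PBRM1 peak. Overlapping peaks of all 8 lists were merged into 91 sites, of which 26 lay at promoters and 65 inside the genes, 57 of the latter in introns. Of all sites, 45 were in both pooled lists, 37 in the BRG1 list only, 5 in the PBRM1 list only and 4 in replicate lists only. Of the 53 pooled PBRM1 peaks at these genes, 48 (90.6%) overlapped a BRG1 peak, against 81.1% of the PBRM1 peaks at all protein-coding genes. Of the 82 pooled BRG1 peaks, 45 (54.9%) overlapped a PBRM1 peak, against 56.1%. The map of peaks along each gene shows where they fell.

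**Figure D3:**
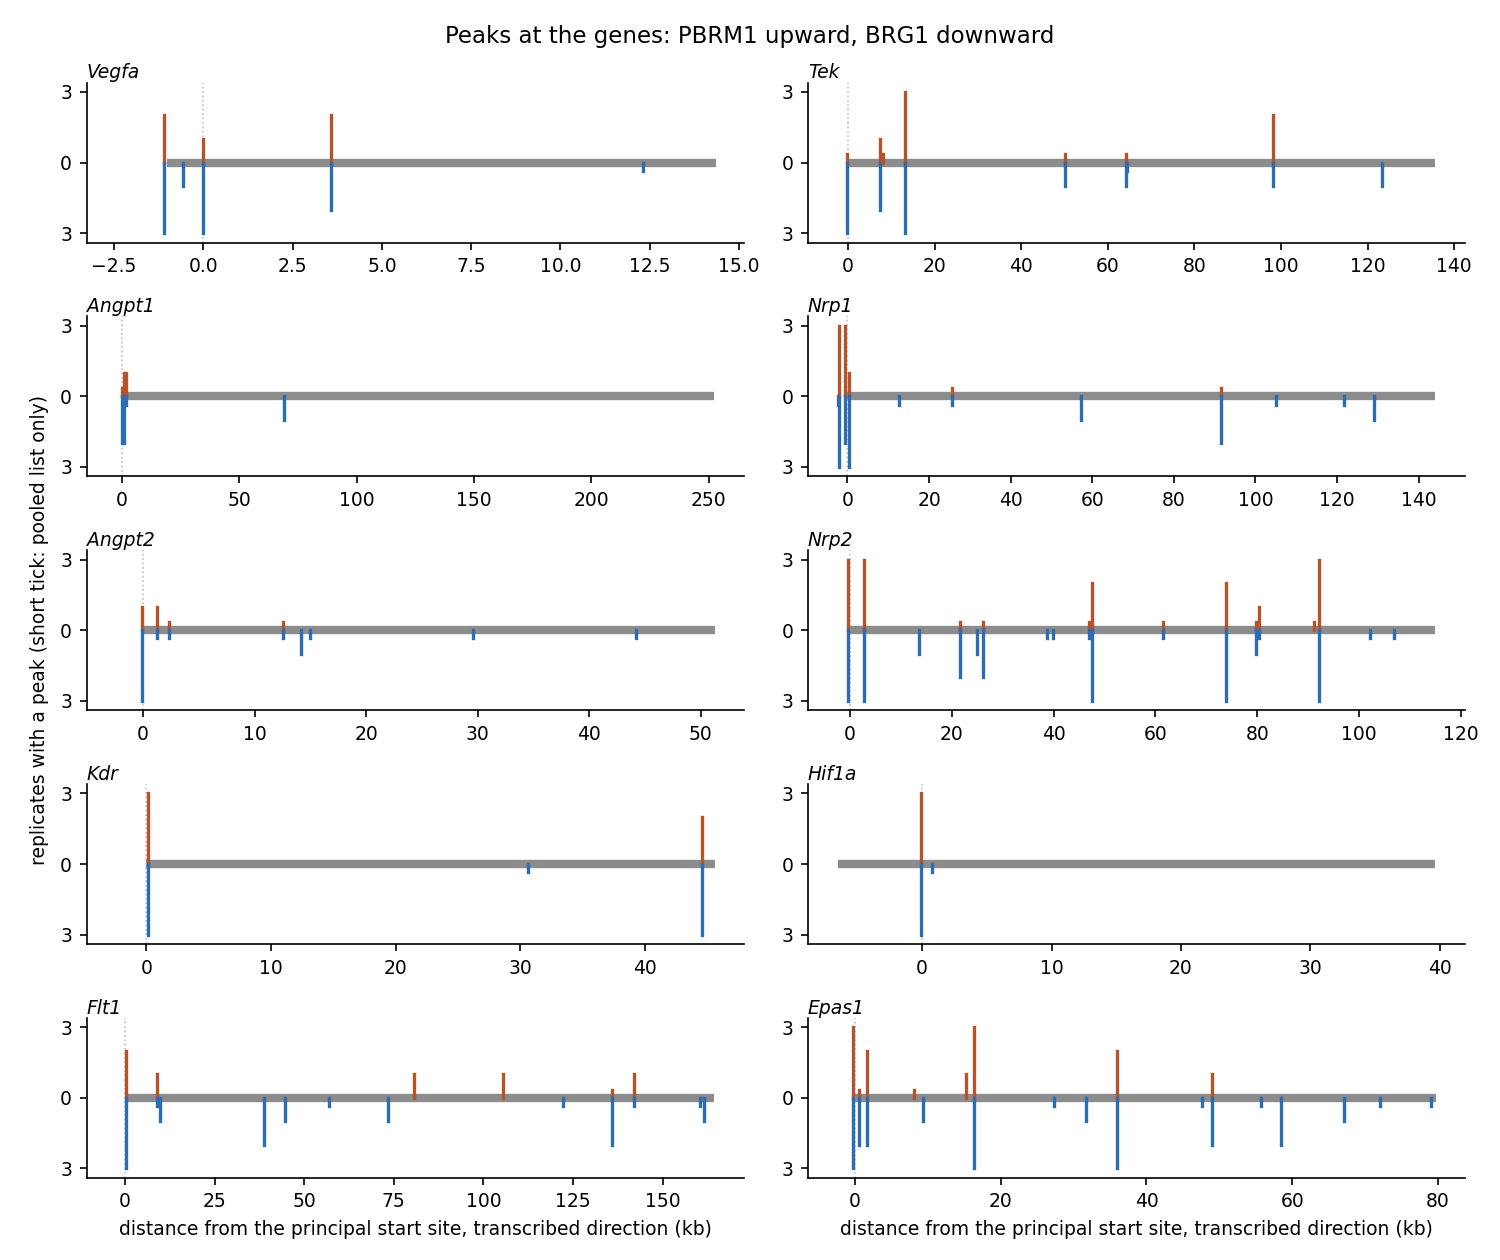
Merged peak sites along each gene by distance in kb from its principal start site (x axis, grey bar for the gene), with PBRM1 upward in rust and BRG1 downward in blue. The length of a line is the number of replicates with a peak (y axis), and a short tick marks a site of the pooled list alone. *Nrp2* and *Epas1* carry sites along their whole length, *Hif1a* and *Angpt1* almost none beyond the promoter.

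Of the 91 sites, 9 had a peak in all 6 replicates, 5 of them at promoters (*Kdr*, *Nrp1*, *Nrp2*, *Hif1a* and *Epas1*) and 4 inside genes. The latter were the *Tek* site described above, 2 sites of *Nrp2* and 1 of *Epas1*. By fold enrichment, the strongest of these 4 was the *Nrp2* site 92.1 kb from the TSS, at the border of an intron and a coding exon (62795658 to 62796098). It had fold enrichments of 6.66, 7.02 and 5.36 for PBRM1 (mean 6.35 ± 0.871, SD, n = 3) and 8.56, 8.96 and 7.33 for BRG1 (mean 8.28 ± 0.849, SD, n = 3). Both means were above those of the *Nrp2* promoter, and for BRG1 every replicate was. The pooled −log10 q was 27.2 at this site against 30.5 at the promoter for PBRM1, and 37.0 against 36.4 for BRG1. The other *Nrp2* site, in an intron 2.76 kb from the TSS (62706223 to 62707667), had 5.67, 4.04 and 3.86 in the PBRM1 replicates and 4.07, 4.82 and 4.92 in those of BRG1. The *Epas1* site, in an intron 16.3 kb from the TSS (86769768 to 86770325), had 4.83, 6.75 and 4.12 in the PBRM1 replicates (mean 5.23 ± 1.36, SD, n = 3) and 7.57, 6.77 and 7.04 in those of BRG1 (mean 7.13 ± 0.408, SD, n = 3). *Epas1* and *Nrp2* had further intronic sites with BRG1 in all 3 replicates and PBRM1 in 2, at 36.0 kb in *Epas1* and at 47.6 and 73.8 kb in *Nrp2*.

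The sequence around the pooled BRG1 summit is shown for these 4 sites and for the upstream site of *Nrp1*, because both antibodies had a peak there in every replicate. It is read from the plus strand of GRCm38.p6, and capitals mark the same strings as above, including AP-1.
Tek intron, chr4:94752384-94752683: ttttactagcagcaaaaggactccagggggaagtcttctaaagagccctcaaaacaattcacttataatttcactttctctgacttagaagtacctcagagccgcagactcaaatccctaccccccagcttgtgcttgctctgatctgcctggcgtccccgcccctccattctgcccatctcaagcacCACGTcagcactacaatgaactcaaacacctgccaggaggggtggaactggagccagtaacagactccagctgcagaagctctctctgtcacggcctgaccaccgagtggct
Nrp1 upstream, chr8:128357148-128357447: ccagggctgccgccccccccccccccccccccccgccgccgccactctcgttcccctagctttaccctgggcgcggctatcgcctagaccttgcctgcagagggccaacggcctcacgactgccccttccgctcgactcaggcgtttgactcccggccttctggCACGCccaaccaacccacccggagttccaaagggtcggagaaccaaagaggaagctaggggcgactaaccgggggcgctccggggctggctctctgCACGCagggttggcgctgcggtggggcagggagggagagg
Nrp2 intron near the promoter, chr1:62706309-62706608: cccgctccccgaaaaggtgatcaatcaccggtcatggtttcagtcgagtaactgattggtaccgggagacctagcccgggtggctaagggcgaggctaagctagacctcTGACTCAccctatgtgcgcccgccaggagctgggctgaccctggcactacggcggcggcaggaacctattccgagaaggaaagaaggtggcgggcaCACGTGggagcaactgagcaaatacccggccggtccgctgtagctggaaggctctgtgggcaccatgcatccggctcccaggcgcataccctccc
Nrp2 intron and coding exon, chr1:62795642-62795941: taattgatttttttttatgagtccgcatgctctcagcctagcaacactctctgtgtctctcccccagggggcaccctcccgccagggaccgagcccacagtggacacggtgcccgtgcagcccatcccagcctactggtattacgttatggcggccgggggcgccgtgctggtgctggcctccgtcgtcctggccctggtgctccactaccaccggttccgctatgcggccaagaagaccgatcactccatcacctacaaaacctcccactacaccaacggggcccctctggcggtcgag
Epas1 intron, chr17:86769826-86770125: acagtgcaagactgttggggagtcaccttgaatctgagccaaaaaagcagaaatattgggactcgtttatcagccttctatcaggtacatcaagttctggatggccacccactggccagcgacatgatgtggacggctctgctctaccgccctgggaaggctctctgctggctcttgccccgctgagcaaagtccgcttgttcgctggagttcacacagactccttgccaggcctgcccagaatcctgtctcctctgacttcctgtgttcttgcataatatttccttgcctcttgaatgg
The *Nrp2* intron near the promoter held the palindrome CACGTG and an AP-1 string, the *Tek* intron held the first hypoxia core and the *Nrp1* site held the other hypoxia core 2 times. The *Epas1* intron and the far *Nrp2* site held none of the strings. Over all pooled BRG1 peaks inside genes and outside promoters, 42.6% of windows of this size around the summit held either hypoxia core and 14.0% held AP-1. Around the strongest promoter summit of each of the 10 genes, either hypoxia core lay in 6 of the 10 windows of PBRM1 and 4 of the 10 of BRG1, against 61.0% and 60.7% of all promoter summits. The share was near the background for PBRM1 and below it for BRG1, over 10 windows each, and a match of so short a string is a description of the sequence only.

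Pooled peaks outside the genes and their promoters, assigned to the nearest TSS, added 9 PBRM1 peaks at 3 genes and 10 BRG1 peaks at 5 genes. Most of them, 7 for each antibody, were in no replicate. Those found in all 3 replicates lay upstream of *Epas1* and *Vegfa*. At 21.4 kb upstream of *Epas1* (chromosome 17, 86732112 to 86732472 in the BRG1 list), PBRM1 had fold enrichments of 4.34, 5.70 and 5.51 (mean 5.18 ± 0.737, SD, n = 3) and BRG1 had 8.58, 6.61 and 9.07 (mean 8.09 ± 1.30, SD, n = 3). The pooled BRG1 fold enrichment there was 10.4, against 8.61 at the *Epas1* promoter, but the replicates of the 2 sites overlapped. The −log10 q of the pooled BRG1 peak was instead lower there, 34.6 against 84.9 at the promoter. For PBRM1 the pooled fold enrichment was lower than at the promoter, 5.84 against 7.04. At 22.1 kb upstream of *Vegfa* (46053386 to 46053732), BRG1 had 5.74, 3.68 and 4.71 (mean 4.71 ± 1.03, SD, n = 3), and PBRM1 had a pooled peak of 4.24 but none in a replicate. The nearest TSS does not show which gene such a site acts on.

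The stromal ligands were set against the endothelial receptors, a grouping by the general roles given above and not by expression in the assayed cells. Whether these cells made the ligands was not tested. Promoter calls were close between them. Over 3 genes and 3 replicates each, PBRM1 promoter peaks were called in 6 of 9 cases for the ligands and in 5 of 9 for the receptors, and BRG1 peaks in 9 of 9 for both. The PBRM1 difference, 11.1 percentage points, was 27.8 without *Angpt1*, 0 at a −log10 q of at least 5 and −6.67 with the neuropilins counted as receptors. The pooled fold enrichment of the strongest promoter peak was 3.47 to 4.30 for the ligands and 4.70 to 6.68 for the receptors in PBRM1. In BRG1 it was 5.00 to 6.66 for the ligands and 6.53 to 8.54 for the receptors. By pooled fold enrichment, the receptors were higher without overlap in PBRM1, and the groups overlapped in BRG1, where *Angpt2* with 6.66 was above *Tek* with 6.53. The lowest receptor value in PBRM1, 4.70 at *Tek*, was that of a pooled peak that no replicate held. In the single replicates the groups overlapped in PBRM1 as well, since *Angpt1* had 4.86 and *Kdr* 4.55 in replicate 3. By pooled PBRM1 summit coverage, *Vegfa* with 22.9 times the library mean was instead above *Kdr* with 15.2, *Flt1* with 10.3 and *Tek* with 6.63. The other ligands, *Angpt1* with 8.28 and *Angpt2* with 8.95, were above *Tek* only. The 2 coreceptors had 4.59 and 5.02 in PBRM1 and 4.84 and 5.07 in BRG1, and the hypoxia factors had 7.04 to 8.21 and 8.61 to 8.90. No test was run over the genes, because genes are not replicates.

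Gene body peaks were counted per 100 kb, with promoter peaks inside the gene included. PBRM1 had 0.941 for the ligands in each replicate and 2.60, 1.45 and 1.16 for the receptors. BRG1 had 1.57, 1.57 and 2.19 for the ligands and 2.89, 3.18 and 2.60 for the receptors. In every replicate the ligands were lower, but *Angpt1* makes up most of their length. Without *Angpt1*, a choice made after its values were seen, the order was the opposite, with 3.50 ± 1.73 for PBRM1 and 6.00 ± 1.50 for BRG1 at *Vegfa* and *Angpt2* (SD, n = 3 each) against 1.74 ± 0.765 and 2.89 ± 0.289 at the receptors. The replicates of the 2 groups overlapped for PBRM1 and not for BRG1. Among genes of at least 10 kb, whose median was 4.26 pooled PBRM1 peaks and 5.93 pooled BRG1 peaks per 100 kb, *Vegfa* stood at percentile 98.0 and 99.5. It is a short gene of 15.4 kb with 8 start sites, and its 19.5 and 32.5 peaks per 100 kb are 3 PBRM1 and 5 BRG1 peaks. *Angpt1* stood at percentiles 21.5 and 19.2.

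Other genes of these pathways were described by count, and in each list the genes named as highest are those with the highest pooled BRG1 fold enrichment among genes with a promoter peak in all 6 replicates. Of 14 known targets of the hypoxia-inducible factors, 13 had a promoter peak in all 3 replicates of each antibody. The shares over all protein-coding genes were 52.2% for PBRM1 and 61.4% for BRG1. The highest pooled BRG1 values were those of *Ankrd37*, with 10.1 ± 1.31 for PBRM1 and 13.5 ± 0.818 for BRG1, and *Pgk1*, a glycolytic enzyme, with 6.81 ± 0.545 and 10.7 ± 0.592 (SD, n = 3 each). Of 11 partners and oxygen sensors of the pathway, 9 had PBRM1 and 11 had BRG1 in all 3 replicates. They were led by *Crebbp*, a coactivator, with 12.8 ± 3.87 and 13.3 ± 1.57, and *Hif1an*, the asparagine hydroxylase that restrains HIF activity, with 8.27 ± 2.53 and 10.1 ± 0.967 (SD, n = 3 each). Of 9 other VEGF and angiopoietin family genes, 5 had PBRM1 and 6 had BRG1 in all 3 replicates, and *Angptl2* and *Vegfc* had the highest pooled BRG1 values. Of 9 neuropilin partners, 6 had PBRM1 and 8 had BRG1, with *Plxna2* and *Sema3d* highest. The median pooled fold enrichments of the targets, 7.26 for PBRM1 and 9.52 for BRG1, were above both those of the 10 genes and those of all protein-coding genes.

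Marker genes of the cell types that the culture could hold were counted and named in the same way. Among all protein-coding genes, 52.2% had PBRM1 and 61.4% had BRG1 in all 3 replicates. Of 14 uterine stromal markers, 7 had PBRM1 and 11 had BRG1 in all 3 replicates, with *Nr2f2* and *Thy1* highest among the genes with a peak in all 6. Of 12 endothelial markers, 3 had PBRM1 and 8 had BRG1. *Erg* had 5.77 ± 0.366 and 7.60 ± 0.739 and *Egfl7* had 6.56 ± 1.34 and 7.33 ± 0.366 (SD, n = 3 each), whereas *Emcn* and *Robo4* had no promoter peak in either pooled list. Of 8 pericyte and smooth muscle markers, 2 had PBRM1 and 6 had BRG1, and *Cspg4* and *Des* were the 2 with both, although *Tagln*, with PBRM1 in 2 replicates, had higher pooled values. Of 7 epithelial markers, 0 had PBRM1 and 4 had BRG1 in all 3 replicates. All 7 nevertheless had a promoter peak in both pooled lists, as did 68.6% (PBRM1) and 72.1% (BRG1) of all protein-coding genes. Of 8 immune cell markers, 0 had a promoter peak in all 3 replicates of either antibody and 6 had none in either pooled list. Promoter peaks are no measure of expression, and the part that endothelial cells in the culture had in the peaks of *Kdr*, *Flt1* and *Tek* was not tested.

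**Figure D4:**
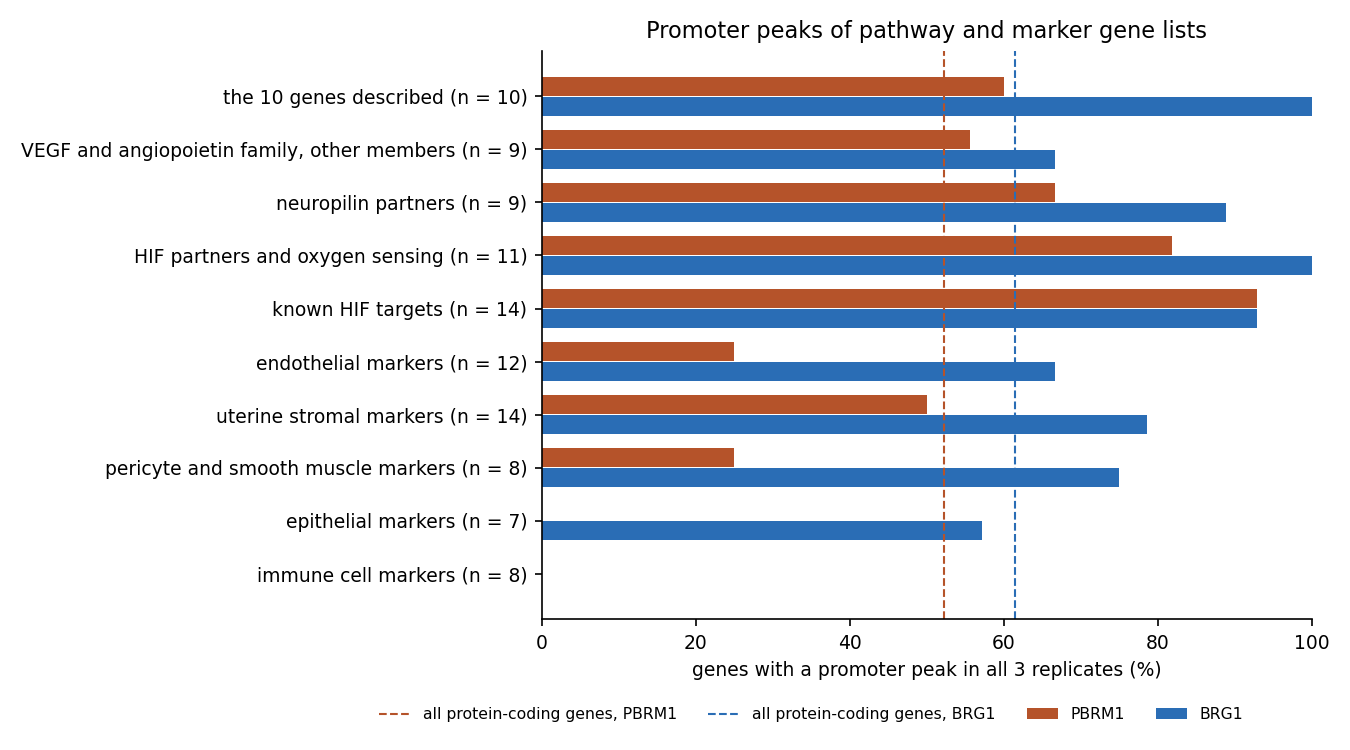
Percent of genes with a promoter peak in all 3 replicates (x axis) for each gene list (y axis, number of genes in brackets), with bars for PBRM1 in rust and BRG1 in blue and dashed lines for all protein-coding genes, at 52.2% and 61.4%. The targets and partners of HIF lie to the right of the lines for both antibodies, all 5 marker lists lie to the left for PBRM1, the epithelial markers at 0, and the immune cell markers are at 0 for both. For BRG1, the stromal, the pericyte and smooth muscle, and the endothelial markers lie to the right, at 78.6%, 75% and 66.7%. The epithelial markers lie to the left for BRG1, at 57.1%.

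The genes most like *Vegfa* and *Kdr* over the 6 replicate lists were sought among 91 genes of these lists, by the mean absolute difference in percentile, with 0 where no peak was called. For *Vegfa* they were *Krt8* and *Tagln*, with mean differences of 5.04 and 5.48, both of which had no promoter peak in PBRM1 replicate 1, where that of *Vegfa* stood at percentile 6.36. For *Kdr* they were *Hif3a* and *Egln3*, with 9.39 and 9.62. The likeness is that of 6 values and says nothing of a shared function.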

How the data were processed

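ChIC-Seq peak lists of PBRM1 and BRG1 were analysed, 1 for each of 3 replicates and 1 pooled list per antibody. The titles gave the antibody and the replicate number. According to the submitters' processing notes and the methods, the authors trimmed read pairs with cutadapt, aligned them with Bowtie2 (the labels give GRCm38.p5), removed multimapping and duplicate reads and ran the peak caller MACS 2.2.7.1 on single and on combined replicates. Per the file headers, the q-value threshold was 0.05, the local background spanned 10000 bp and no control was used. The 8 deposited lists give for each peak a pileup signal (fragments at the summit), a −log10 q-value and the fold enrichment, a ratio of (pileup + 1) to (local background + 1). From the deposited signal and ratio, the local background was recovered and divided by the mean coverage. Signal below the calling threshold is unknown, and lists of different depth are not on one scale.

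Peaks were intersected (minimum 1 bp) with the GENCODE M21 annotation in Python 3.11.15 with numpy 2.4.6, pandas 2.3.3 and scipy 1.17.1, and plotted with matplotlib 3.10.9. Promoters were the 2000 bp on either side of any TSS of the gene. All peak and gene coordinates lay within the chromosomes of the reference. The assignment was tested on simulated data, where 1000 of 1000 planted promoter peaks were found among 2000 genes. The antibodies were compared with two-sided exact permutation tests over replicates. The study calls the replicates biological and gives no further detail, so p-values measure the spread between these samples. Named genes were the 10 genes, the 2 of each list with the highest pooled BRG1 fold enrichment among those with a promoter peak in all 6 replicates, genes without any pooled promoter peak where a list had 3 or fewer, and for *Vegfa* and *Kdr* the 2 most similar genes. The genes, lists and alternatives were chosen with earlier results of these data known.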

Additional observations from a re-analysis of the deposited data

How the results depend on the processing

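The 10 pooled PBRM1 promoter calls became 4 at a fold enrichment of at least 5 and 5 with pooled peaks found in all 3 replicates. The 6 genes with PBRM1 in all 3 replicates became 3 at a −log10 q of at least 5 and 1 at a fold enrichment of at least 5, where BRG1 fell from 10 to 4. No share of all protein-coding genes was set beside these stricter settings. Whether the falls are particular to these genes was therefore not tested. Leaving out a replicate gave 6 to 8 (8 without PBRM1 replicate 3), and 10 in each case for BRG1. The 51 pooled PBRM1 peaks in the gene bodies became 31 without promoter windows and 9 with pooled peaks found in all 3 replicates. For BRG1, 80 became 45 at a −log10 q of at least 5 and 18 with peaks found in all 3 replicates. The 2 genes whose percentiles did not overlap between the antibodies became 1 by fold enrichment or among promoter peaks, and 2 to 4 with a replicate left out, 4 without PBRM1 replicate 2 or BRG1 replicate 2. A lack of overlap is easier to meet with fewer replicates. The share of 40.1% over all genes given above holds only for the main setting with all replicates.

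Ligands minus receptors, PBRM1 promoter calls were 11.1 percentage points, −6.67 with the neuropilins as receptors, 0 at a −log10 q of at least 5, 27.8 without *Angpt1* and 0 to 16.7 with a replicate left out. BRG1 calls went from 0 to −11.1 at a −log10 q of at least 5. Gene body peaks per 100 kb were −0.795 for PBRM1 and −1.12 for BRG1. They were 1.76 and 3.11 without *Angpt1*, a choice added after seeing the data, and −0.361 for PBRM1 and −0.409 for BRG1 at a −log10 q of at least 5. With a replicate left out they were −1.08 to −0.361 and −1.47 to −0.867. The percentile difference turned among promoter peaks at *Nrp2*, to −0.539, and at *Hif1a*, to −2.11, and at *Hif1a* by pileup, to −0.112, and in leave-one-out, from −0.605 to 0.813. The cause of these changes was not tested.

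Samples with the same replicate number did not deviate together (Pearson's r across 11376 genes from −0.0113 to 0.0124). A correlation of peak percentiles does not show which pool of cells a library came from. Whether samples with the same number shared a pool was not tested. With the replicate number as a block, the differences were the same and the smallest exact permutation p was 0.25. The BRG1 percentile was higher in all 3 pairs at 3 genes. That rule is looser than the lack of overlap met by 2 genes, and no share over all genes was set beside it. Peak depth limits weak sites, and lists hold no value without a call. The other alternatives kept the direction of these results, and the other counts stayed within 1.5 times.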
